A study of Mus musculus with 24 samples.

Results

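Copy number was compared between 8 murine neuroblastoma tumors with transgenic IGF2BP1 and MYCN (TIM) and 5 adrenal glands of animals with transgenic MYCN alone (AGM). Both groups were taken by their sample descriptions, so 13 of the 24 labelled samples are covered. TIM samples carry the genotype label IMP1/MYCN, CRE +, where IMP1 is another name of IGF2BP1, and AGM samples the label MYCN fl/wt, CRE +. The Cre recombinase is thus common to both groups, and so is at least 1 MYCN transgene. The transgenes lie behind a transcriptional stop cassette at the Rosa26 locus (R26), and Dbh-driven iCRE removes the stop in adrenal glands and peripheral nerves. The mice had been backcrossed to C57Bl6/N. TIM replicates 1 and 5 are labelled as tumors of the adrenal gland, and the other 6 only as tumors. The age of each animal was not in the labels, and tumors were removed when animals met criteria for termination, so age, tissue site and genotype cannot be told apart. Nothing in the labels ties tumors to animals, and 2 tumors may come from 1 mouse. The p-values below therefore measure the spread between these samples only. Tissue identity was not checked here, because DNA copy number carries no expression markers.

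In neuroblastoma, a tumor of the sympatho-adrenal lineage, gains and losses of whole chromosomes or large parts of them are common, and their pattern is used in diagnosis. MYCN is the transcription factor amplified in many high-risk tumors, and IGF2BP1 is an RNA-binding protein that protects mRNAs of growth genes from decay. Murine Igf2bp1 lies on Chr 11 in a part syntenic with human 17q, and murine Mycn on Chr 12 in a part syntenic with human 2p. A copy number gain is measured as an excess of sequencing reads over a normal genome. In bulk tissue, fewer cells with a gain and a smaller gain per cell cannot be told apart.

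Each value is a log2 ratio of a genomic segment to the mean of 3 adrenal glands of CRE-negative wildtype mice, which both groups share as reference. On this scale 3 copies give 0.58, 4 copies give 1 and 1 copy gives -1. Segments whose median reached 0.3 were called gained and those at -0.4 or lower were called lost. Neighboring segments called in the same direction were joined to 1 region. Sequencing was shallow, and read numbers per segment were not analysed here, so the spread over AGM serves as the error. The 95 chromosome medians of AGM lay between 0.0092 and 0.020. Segments numbered 50 to 57 in AGM and 48 to 81 in 6 TIM tumors, while TIM replicates 9 and 12 stood apart with 117 and 123.

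Pieces of reference sequence mark the loci on which the results turn. The first is the XbaI site (TCTAGA, identical on both strands) of the first intron of Gt(ROSA)26Sor at which transgenes are commonly inserted, shown because the gains of TIM tumors met at this gene. Which site was used for the present transgenes was not given in the sources used here. The piece spans chr6:113052932-113053057 (GRCm39, minus strand, which is the strand of the gene) and lies in the intron from 113048397 to 113054028. The 11494 bases of the gene hold 6 such sites, 2 of them in this intron. Of 12731 windows of that length on Chr 6, 97.2% hold at least 1 and 15.9% at least 6. The second is the annotated start of Dbh, the gene whose regulatory sequence drives iCRE, shown because this gene lies in a focal gain of 2 TIM tumors. It spans chr2:27054995-27055294 on the plus strand. Capitals mark the XbaI site in the first sequence and the first 50 bases of Dbh in the second.
Gt(ROSA)26Sor intron: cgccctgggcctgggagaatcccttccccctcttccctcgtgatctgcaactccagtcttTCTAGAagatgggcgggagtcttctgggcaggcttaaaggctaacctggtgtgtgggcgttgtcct
Dbh start: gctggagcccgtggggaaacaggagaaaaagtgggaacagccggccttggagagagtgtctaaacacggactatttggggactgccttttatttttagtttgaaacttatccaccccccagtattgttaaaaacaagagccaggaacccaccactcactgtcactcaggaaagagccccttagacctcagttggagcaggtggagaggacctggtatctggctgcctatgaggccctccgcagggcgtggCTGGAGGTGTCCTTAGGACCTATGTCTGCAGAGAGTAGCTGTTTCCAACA

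Most TIM genomes gained far more sequence than AGM glands. The gained sequence was 148.2 Mb in TIM replicate 1, 1.06 Mb in replicate 4, 21.3 Mb in replicate 5, 59.0 Mb in replicate 7, 1.86 Mb in replicate 8, 120.4 Mb in replicate 9, 147.3 Mb in replicate 11 and, at the top, 159.0 Mb in replicate 12. AGM replicates 1 to 5 had 1.82, 1.04, 1.02, 1.08 and 1.36 Mb. The groups overlapped through TIM replicate 4 alone, since 7 of 8 tumors exceeded every gland. For TIM replicate 8 this margin was narrow, with 1.86 Mb against 1.82 Mb in AGM replicate 1. All 5 of its gained regions were shorter than 1 Mb. The median was 89.7 Mb in TIM and 1.08 Mb in AGM (exact permutation test of the rank sum, two-sided, p = 0.0109, BH adjusted over 7 measures p = 0.0381). The longest gained region had a median of 79.6 Mb in TIM and 0.560 Mb in AGM (exact permutation p = 0.0171, adjusted p = 0.0399). The number of protein-coding genes touched by a gain ranged from 4 to 1647 with a median of 800 in TIM, against 3 to 10 with a median of 4 in AGM (exact permutation p = 0.00699, adjusted p = 0.0381). The TIM medians depend on few tumors. Without TIM replicate 1, 9, 11 or 12 they were 59.0 Mb gained and 485 genes, and with thresholds of 0.5 and -0.6 they were 39.4 Mb gained, 37.4 Mb for the longest region and 356.5 genes. Without both TIM replicates 9 and 12 they were 40.2 Mb, 34.3 Mb and 455.5 genes. All 3 adjusted values lie close to the threshold of 0.05. Leaving out any 1 sample other than TIM replicate 4 raised them to between 0.0566 and 0.108, and without TIM replicate 4 all 3 fell to 0.00589. With TIM replicates 9 and 12, the tumors with most segments, both left out, the adjusted p was 0.106 for gained sequence, 0.111 for the longest gained region and 0.106 for gained genes.

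**Figure D1:**
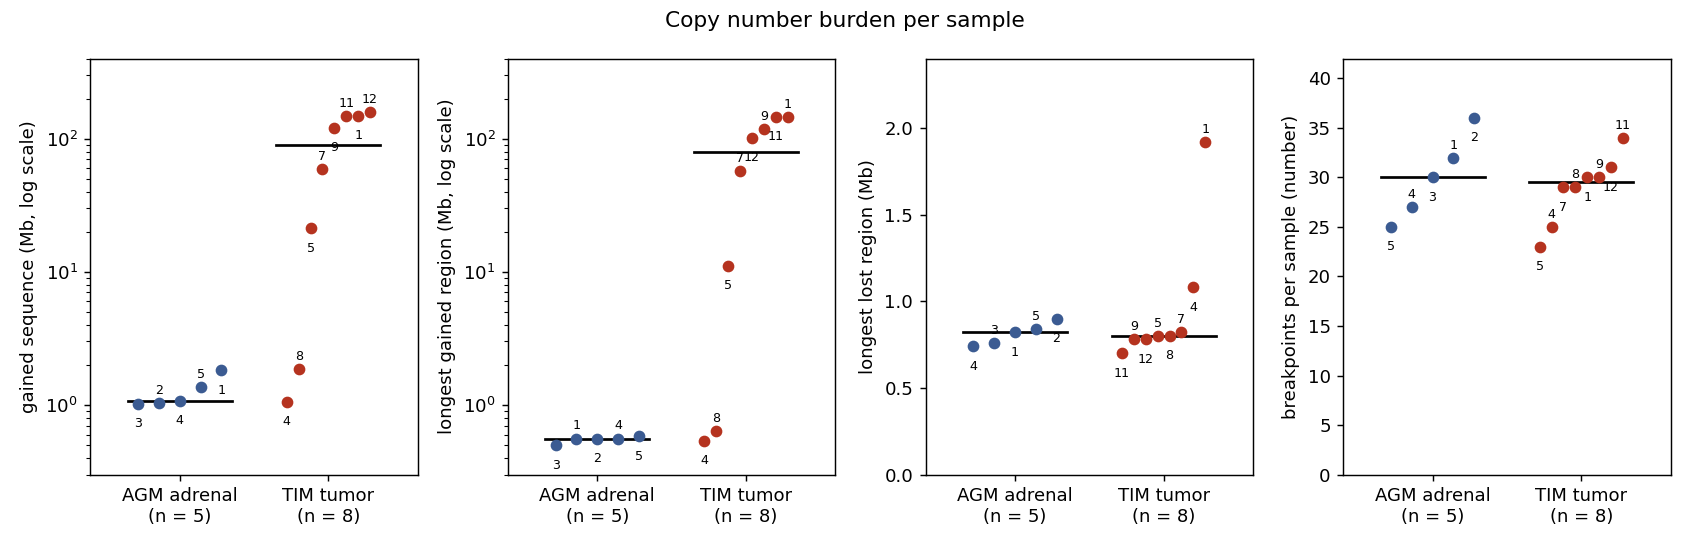
Gained sequence and longest gained region (Mb, log axes), longest lost region (Mb) and number of breakpoints for each of 5 AGM glands and 8 TIM tumors, with replicate numbers at the points and the group median as a line. TIM replicates 4 and 8 lie near the glands in gained sequence at 1.06 and 1.86 Mb, while the other 6 tumors lie between 21.3 and 159.0 Mb; lost regions and breakpoints overlap between groups.

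The gained length came from few long regions. TIM tumors held 41 gained regions, of which 7 were at least 10 Mb long and made up 95.1% of all 658.1 Mb gained. Another 6 regions were 1 to 10 Mb long and 28 were shorter than 1 Mb. In AGM all 20 gained regions were shorter than 1 Mb. Chr 6 held 76.7% of the gained length in TIM and Chr 11 held 20.1%. A gain over at least 50% of an autosome was called for Chr 6 in TIM replicates 1, 11 and 12 and for Chr 11 in TIM replicate 9, and for no autosome in AGM. Hence each of these 4 tumors had 1 gained chromosome and the other 4 tumors had none (exact permutation p = 0.105, adjusted p = 0.184). For Chr 6, with 3 of 8 TIM tumors and 0 of 5 AGM glands, Fisher's exact test gave p = 0.231 (BH adjusted over 19 autosomes p = 1). Thus 0 of 19 autosomes (0%) passed the test, also at an unadjusted p under 0.05. Ranking the chromosome medians in place of calls gave 0 autosomes after adjustment and 2 (10.5%) at an unadjusted p under 0.05 in the exact permutation test, Chr 4 and Chr 15. On Chr 4 the medians were 0 to 0.015 in TIM and 0.013 to 0.015 in AGM (exact permutation p = 0.0186, adjusted p = 0.177), and on Chr 15 they were -0.093 to 0.014 in TIM and 0.013 to 0.017 in AGM (exact permutation p = 0.00311, adjusted p = 0.0591). Apart from TIM replicate 4 on Chr 15 these differences were under 0.03, far below the threshold of a gain or loss. No loss took up 50% or more of any autosome in the 13 samples.

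**Figure D2:**
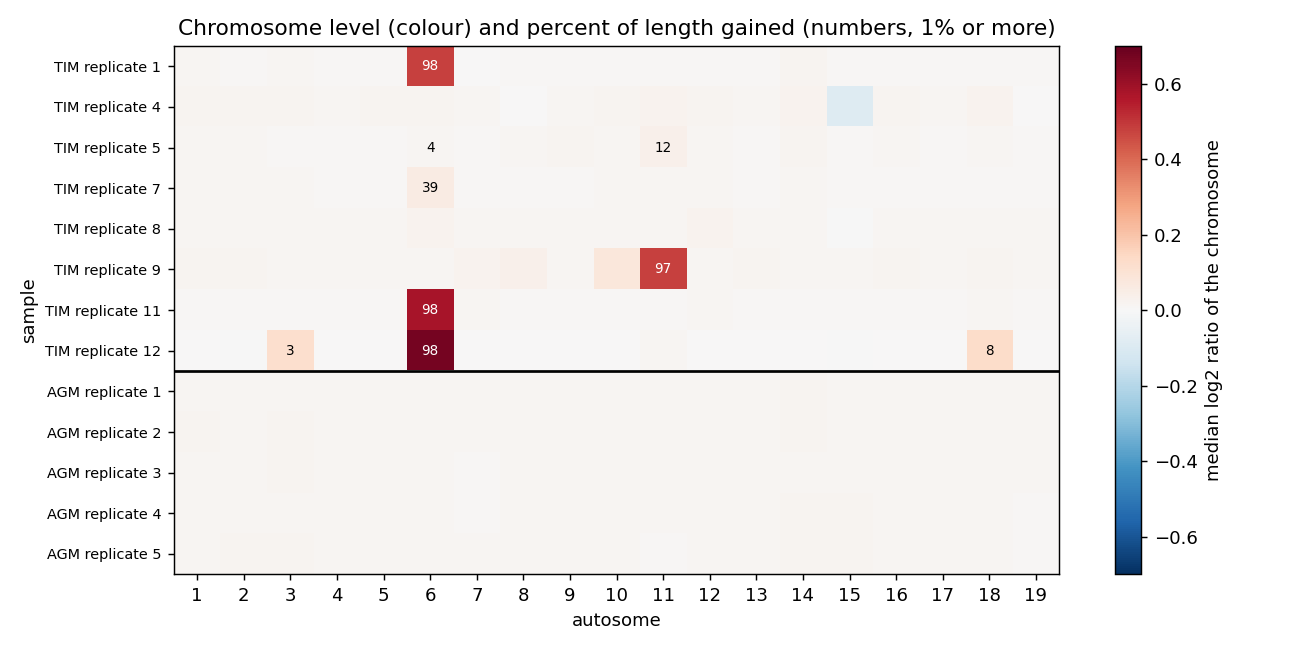
Heat map of 19 autosomes (columns) in 13 samples (rows), colored by the median log2 ratio of the chromosome, with the percent of the chromosome called gained printed where it is at least 1%. Chr 6 and Chr 11 hold the strong gains of TIM, and in AGM no chromosome reaches 1% gained.

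Gains of at least 1 Mb on Chr 6 took 3 forms. The whole chromosome was gained in TIM replicates 1, 11 and 12, with 97.9%, 97.8% and 97.7% of its length called. The distal 57.4 Mb from 92100001 to 149500000 were gained in TIM replicate 7. Short, high gains were present in TIM replicate 5 (5.88 Mb, 110400001 to 116280000) and TIM replicate 9 (1.1 Mb, 113040001 to 114140000). TIM replicates 4 and 8 had no gain of at least 1 Mb on Chr 6. The forms differed in height. The length-weighted level of segments of at least 1 Mb was 0.49 in TIM replicate 1, 0.58 in TIM replicate 11, 0.70 in TIM replicate 12 and 0.60 over the gained part in TIM replicate 7, which correspond to copy numbers of 2.8, 2.98, 3.25 and 3.04. All 4 are near the log2 ratio of 3 copies. The short gains of TIM replicates 5 and 9 were both listed at a median of 3.0, or 16 copies, with segment means of 2.94 and 2.97. Identical values recur in these data, since 55 of 139 lost segments lay within 0.005 of -1 and 19 at -5.32. Medians slightly above 3.0 occur elsewhere in these samples, so 3.0 is not the highest value listed. Whether it marks a step of the caller or an equal height in both tumors was not tested. Both short gains ended abruptly. The flanking segments of TIM replicate 5 were at 0.011 over 49.4 Mb and 0.013 over 9.34 Mb, and those of TIM replicate 9 at 0.019 over 42.4 Mb and 0.027 over 14.3 Mb.

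**Figure D3:**
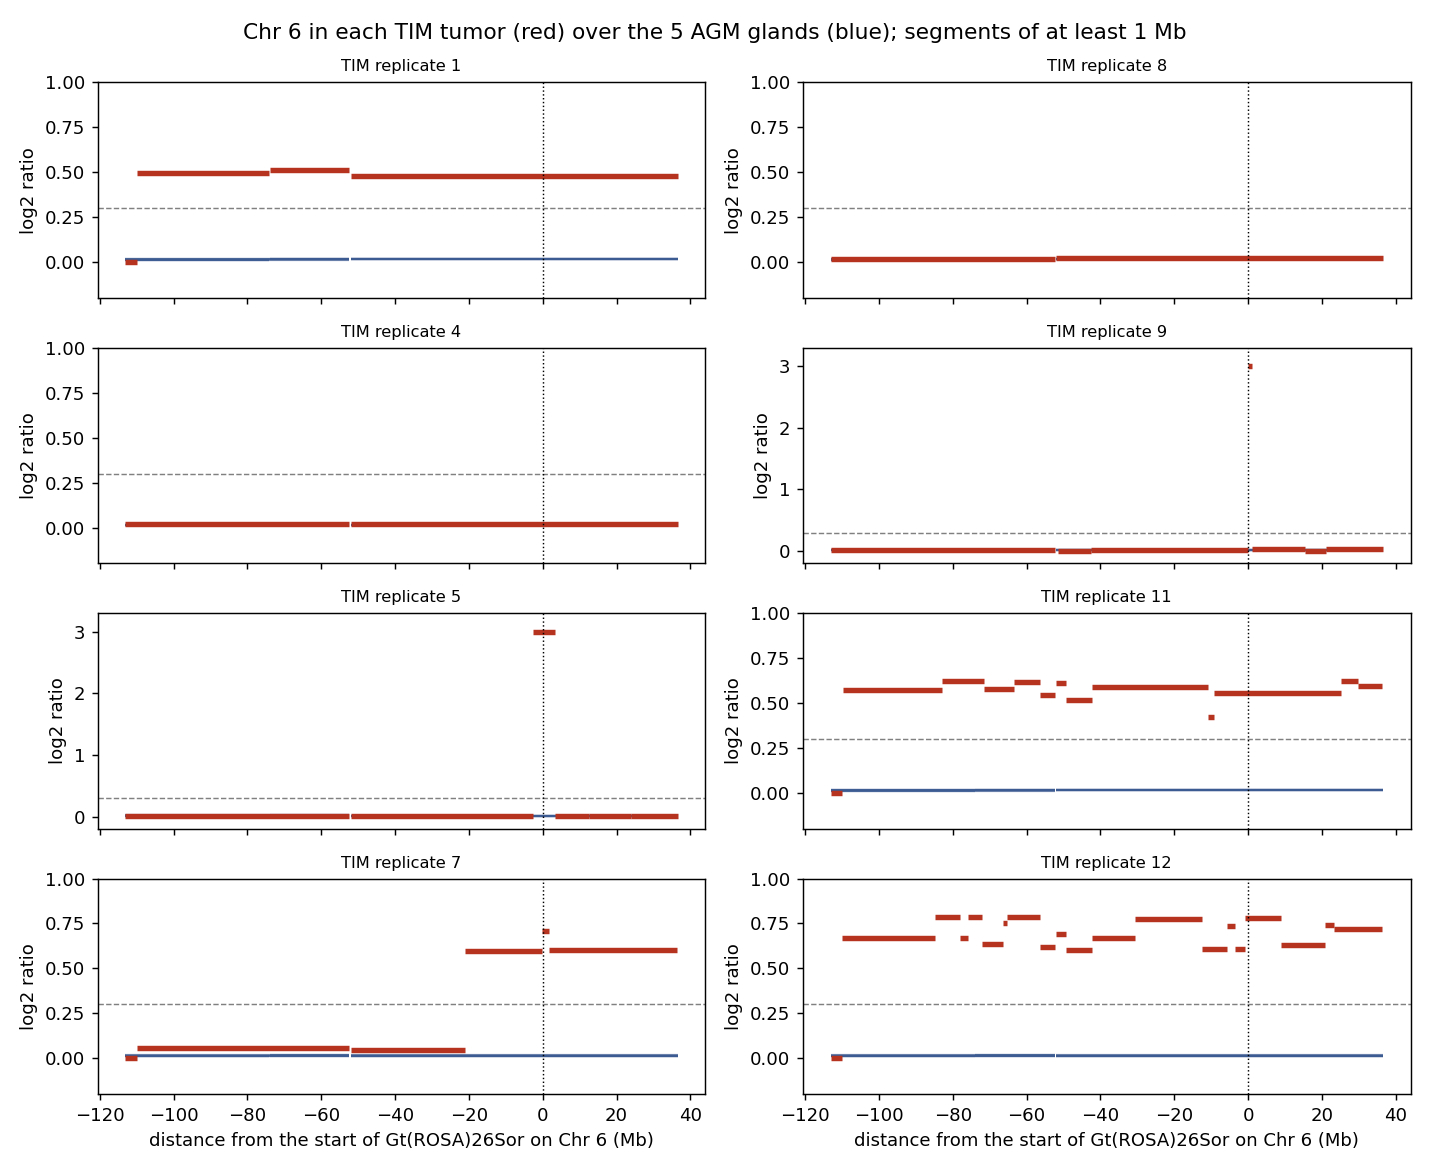
Log2 ratio of Chr 6 segments of at least 1 Mb in each TIM tumor (red) over the 5 AGM glands (blue), plotted by distance in Mb from the start of Gt(ROSA)26Sor (dotted line), with the gain threshold of 0.3 dashed. The vertical axis is longer for TIM replicates 5 and 9 than for the others. The gains of 6 tumors meet at the dotted line, at 3.0 in TIM replicates 5 and 9 and between 0.48 and 0.78 in the other 4.

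In all 6 tumors with a gain of at least 1 Mb on Chr 6, such a gain covered Gt(ROSA)26Sor, the non-coding RNA gene carrying the transgenes. This gene (ENSMUSG00000086429) lies on Chr 6 from 113043843 to 113055336 (GRCm39). Its log2 ratio was 0.48 in TIM replicate 1, 0.019 in replicate 4, 3.0 in replicate 5, 0.71 in replicate 7, 0.022 in replicate 8, 3.0 in replicate 9, 0.56 in replicate 11 and 0.78 in replicate 12. In the 5 AGM glands it was 0.015 each time. The groups did not overlap in this value (exact permutation p = 0.00155, the smallest this design allows), although the excess of TIM replicates 4 and 8 was under 0.01. These 2 values are levels of a segment of 88.6 Mb, and TIM replicate 4 was at like levels on other chromosomes, such as 0.021 on Chr 1 and 0.026 on Chr 11, as was TIM replicate 8 on Chr 12 at 0.023. The separation of the groups in rank therefore does not mark a gain in these 2 tumors. As calls, 6 of 8 TIM tumors (75%, exact Clopper-Pearson 95% interval from 34.9% to 96.8%) and 0 of 5 AGM glands (interval up to 52.2%) were gained (Fisher's exact test, two-sided, p = 0.0210). This p-value is unadjusted, and the locus was chosen with earlier results of these data known. The value was 0.0606 after leaving out any 1 AGM gland, 0.0606 without TIM replicates 9 and 12 and 0.0606 among the 6 tumors not labelled adrenal. The gene lay at the edge of the shortest gain. The gain of TIM replicate 9 began 3.84 kb before the gene in genome order, which is within 1 step of the 20 kb grid of segment starts, and ran for 1.08 Mb beyond it. The gain of TIM replicate 5 began 2643.8 kb before the gene and reached 3.22 Mb beyond it. In TIM replicate 7 a step within the distal gain covered the same place, with 0.71 over 2.06 Mb from 112780001 to 114840000 between flanks of 0.59 and 0.60. In TIM replicate 12 the gene lay in a segment of 9.78 Mb at 0.78, after one at 0.61 that ended at 112340000. TIM replicates 1 and 11 had no step within 1 Mb of the gene. Whether reads of the inserted transgenes enter these values was not tested.

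The part gained in 6 TIM tumors and no gland was the 1.1 Mb of TIM replicate 9. It overlaps 30 protein-coding genes. In order along Chr 6 the first 20 are Thumpd3, Setd5, Lhfpl4, Mtmr14, Cpne9, Brpf1, Ogg1, Camk1, Tada3, Arpc4, Ttll3, Rpusd3, Cidec, Jagn1, Il17re, Il17rc, Creld1, Prrt3, Emc3 and Fancd2. Setd5 and Brpf1 encode chromatin proteins, Ogg1 removes oxidized guanine from DNA, Fancd2 acts in repair of DNA crosslinks, and Arpc4 is a subunit of the Arp2/3 actin complex. Among the other 10 is Vhl, which targets hypoxia-inducible factors for degradation. Each of the 30 genes had p = 0.0210 in Fisher's exact test, and they were all the genes with an unadjusted p under 0.05 (30 of 20621, 0.145%). This count was 0 without any 1 AGM gland, without TIM replicates 9 and 12 together, with the 6 tumors not labelled adrenal and at thresholds of 0.5 and -0.6, and 61 without TIM replicate 4, 8 or 9. After BH adjustment over all 20621 autosomal protein-coding genes 0 were called (0%). The exact permutation test of the log2 ratio also called 0 genes (0%) after adjustment. At an unadjusted p under 0.05 it gave 1671 genes (8.10%), of which 595 (2.89%) were higher and 1076 (5.22%) lower in TIM. These counts set no minimum size of difference. Over all 20621 genes the difference between group medians had a median of -0.0024. Fisher's exact test of 8 against 5 samples cannot go below 0.000777, and BH adjustment needs 321 genes at that value before it calls any. Simulated data with 200 genes gained in every tumor gave 0 calls for that reason, and with 401 genes it gave 401.

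The wider gain of TIM replicate 5 adds 31 genes to these 30, for 61 in all. On the side before Gt(ROSA)26Sor it adds 7 genes that include Grm7, a glutamate receptor, Oxtr, the oxytocin receptor, and Rad18, a ubiquitin ligase of replication repair. On the other side it adds 24, among them Pparg, the nuclear receptor of fat cells. The 5.88 Mb of this gain were shared by 5 tumors, 57.4 Mb by 4 tumors and 145.7 Mb of Chr 6 by 3 tumors. No other autosome had any sequence gained in 3 or more TIM tumors and no gland. In genes, 2826 (13.7%) were gained in at least 1 TIM tumor and no gland, 1477 (7.16%) in at least 2, 1105 (5.36%) in at least 3, 471 (2.28%) in at least 4 and 61 (0.296%) in at least 5. In AGM 11 genes (0.0533%) were gained in at least 1 gland.

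Genes of 12 lists were read against these shares. The lists hold 113 different autosomal genes, of which 40 were gained in at least 1 TIM tumor, 23 in at least 3 and none in AGM, and none was lost in any of the 13 samples. The 23 genes gained in at least 3 tumors are the 23 that lie on Chr 6. The 17 other gained genes comprise all 15 on Chr 11 together with Dbh on Chr 2 and Nras on Chr 3. All but 2 of the gained list genes thus lie on Chr 6 or Chr 11, and a list chosen for Chr 6 has a high count by its choice. Of 17 autosomal RAS-MAPK genes 7 were gained in at least 1 tumor and 5 in at least 3. Ret, the receptor of glial-derived growth factors, was gained in TIM replicates 1, 7, 11 and 12 at 0.48 to 0.78. Braf and Met, a kinase of the cascade and the receptor of hepatocyte growth factor, were gained in 3 tumors each. Nras was gained in TIM replicate 12 alone at 0.32. Hras, Mapk3 and Map2k1 were gained in none. Of 19 cell cycle and p53-Rb genes 5 were gained. Ccnd2, a cyclin that drives entry into the cycle, Foxm1, a transcription factor of mitotic genes, and Cdkn1b, an inhibitor of cyclin-dependent kinases, were each gained in 4 tumors, so that a brake and 2 drivers lay in the same gains. Trp53 and Aurkb on Chr 11 were gained in TIM replicate 9 alone.

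Shares of the lineage lists stand beside the 13.7% of all genes gained in at least 1 tumor. Of 11 transcription factors of the core circuit 2 (18.2%) were gained. Gata2 on Chr 6 was gained in 3 tumors and Tbx2 on Chr 11 in 1, while the others, among them Phox2a, Hand2, Gata3, Isl1, Tfap2b, Sox11 and Insm1, were gained in none. Of 9 catecholamine genes 3 (33.3%) were gained, Ddc, Dbh and Cyb561 in 1, 2 and 2 tumors, and Th, the rate-limiting enzyme of catecholamine synthesis, in none. All 7 genes of the 2p-syntenic list, among them Mycn, Alk and Odc1, were gained in 0 tumors. Mycn lay between 0 and 0.023 in TIM and between 0.012 and 0.015 in AGM. Reads of the MYCN transgene were not separated from those of Mycn here, and whether any enter this value was not tested. The 1p36-syntenic list (6 genes, with Chd5 and Arid1a), the 11q-syntenic list (6 genes, with Atm and Chek1) and the list of telomere and other genes (6 genes, with Tert and Ptprd) had 0 members gained and 0 lost. Of 14 genes of the MYC family and the LIN28-let-7 axis, Igf2bp3 was gained in 3 tumors and Igf2bp1 in 1, and all 5 let-7 genes in none.

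Chr 11 was gained in 2 TIM tumors. In TIM replicate 9 a gain of 118.2 Mb from 3160001 to 121360000 held 1613 protein-coding genes at levels from 0.34 to 0.59, with a weighted level of 0.46 or 2.76 copies. The level was 0.34 from 6760001 to 50460000, 0.48 up to 68600000, 0.54 up to 93520000 and 0.59 from there to 108360000, which includes Igf2bp1. In TIM replicate 5 only parts passed the threshold, 3.26 Mb at 0.36 (85760001 to 89020000, with Msi2, an RNA-binding protein of stem cells) and 11.1 Mb at 0.41 (96780001 to 107920000, with Top2a, the topoisomerase of dividing cells, and Brca1 of DNA repair). These are peaks of a longer plateau. The whole 50.8 Mb from 70460001 to 121240000 had a weighted level of 0.23, or 2.35 copies, against 0.0078 to 0.026 over the same part in AGM and in the 6 TIM tumors other than replicates 5 and 9. Igf2bp1 lay between both peaks at 0.22, below the threshold, and Birc5, an inhibitor of apoptosis, lay beyond them at 0.12. Of 10 genes of the 17q-syntenic list all 10 were therefore gained in TIM replicate 9, and 4 (Top2a, Msi2, Gjc1 and Brca1) also in TIM replicate 5.

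**Figure D4:**
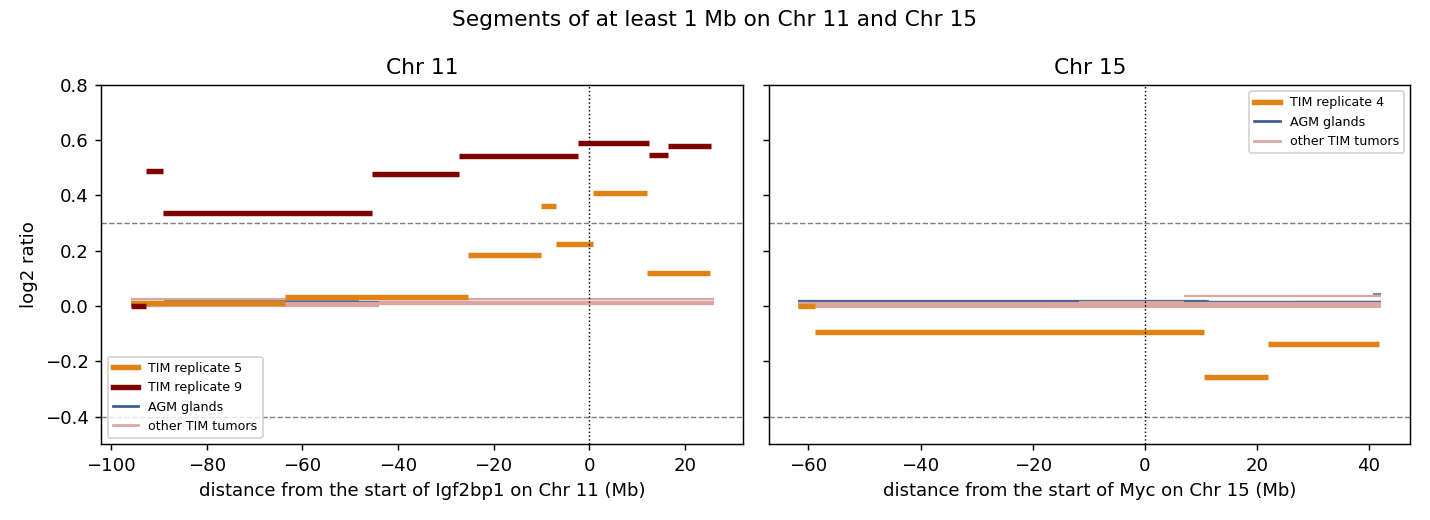
Log2 ratio of segments of at least 1 Mb on Chr 11, by distance in Mb from the start of Igf2bp1, and on Chr 15, by distance from the start of Myc, with the thresholds of 0.3 and -0.4 dashed. On Chr 11 TIM replicate 9 lies above the threshold from 0.34 to 0.59 and TIM replicate 5 crosses it in 2 places; on Chr 15 TIM replicate 4 lies below the other samples, down to -0.26, without reaching -0.4.

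The steps within long gains differed between tumors. TIM replicate 1 had 3 segments of at least 1 Mb over Chr 6, between 0.48 and 0.51, TIM replicate 11 had 12 between 0.42 and 0.62, and TIM replicate 12 had 19 between 0.60 and 0.79. Of 10 positions at which segments of at least 1 Mb abut in TIM replicate 11, 7 lay 620 to 6480 kb from the nearest start of such a segment in TIM replicate 12 and 3 lay within 200 kb. The close ones were 80 kb apart at 56640001 and 56720001, 200 kb apart at 63640001 and 63840001, and 60 kb apart at 70780001 and 70720001. At the middle one the level fell in both tumors, from 0.61 to 0.52 and from 0.69 to 0.60. GC content varied with these levels in some tumors. Over 145 windows of 1 Mb on Chr 6 the correlation between GC content and level across windows was 0.64 in TIM replicate 12, 0.18 in TIM replicate 11 and -0.13 in TIM replicate 1. Over 118 windows of Chr 11 it was 0.66 in TIM replicate 9, and over 50 windows of the distal part it was -0.035 in TIM replicate 5. In TIM replicate 12 the windows richer in GC than the median had a mean level of 0.74 and the others 0.66, and in TIM replicate 9 the levels were 0.52 and 0.41. Windows share a library and, within a segment, a value, so these correlations are descriptions. The part of GC content in the number of segments of TIM replicates 9 and 12 was not tested.

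Called gains on other autosomes were small. TIM replicate 12 had 4.52 Mb at 0.32 on Chr 3 (100720001 to 105240000, 47 genes with Nras), and on Chr 18 2.40 Mb at 0.37 and 5.26 Mb at 0.30. Beyond the first 3 Mb, segments of this tumor lay at 0.050 to 0.32 on Chr 3 and 0.11 to 0.37 on Chr 18. Its weighted levels over the whole chromosomes were 0.12 and 0.14, or 2.18 and 2.20 copies. In AGM and the other 7 tumors they were at most 0.019 and 0.025. From segment means in place of medians they were 0.21 and 0.22 in TIM replicate 12, and at most 0.054 and 0.068 elsewhere. A focal gain at Dbh, the enzyme that makes noradrenaline, was present in TIM replicate 7 (120 kb at 0.85, 27020001 to 27140000 on Chr 2) and TIM replicate 8 (140 kb at 0.97, 27020001 to 27160000). It overlaps Fam163b, Dbh and Sardh, and in TIM replicate 8 also Vav2. Dbh was between 0.0042 and 0.045 in the other 6 tumors and between 0.0079 and 0.015 in AGM, all of which are CRE-positive too. Whether reads of the Dbh-driven iCRE transgene contribute was not tested. The same tumors, TIM replicates 7 and 8, shared a gain of 420 and 640 kb on Chr 14 (from 18660001 and 18600001, at 0.50 and 0.48) over predicted Gm genes of a multigene family, in which counts of near-identical copies are uncertain. No other gained regions shorter than 5 Mb in both tumors were shared by 2 TIM tumors and no gland. TIM replicate 11 had a gain of 60 kb at 1.57 at Tmem267 on Chr 13 (120020001 to 120080000) and TIM replicate 1 one of 760 kb at 0.61 on Chr 16 without a protein-coding gene.

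**Figure D5:**
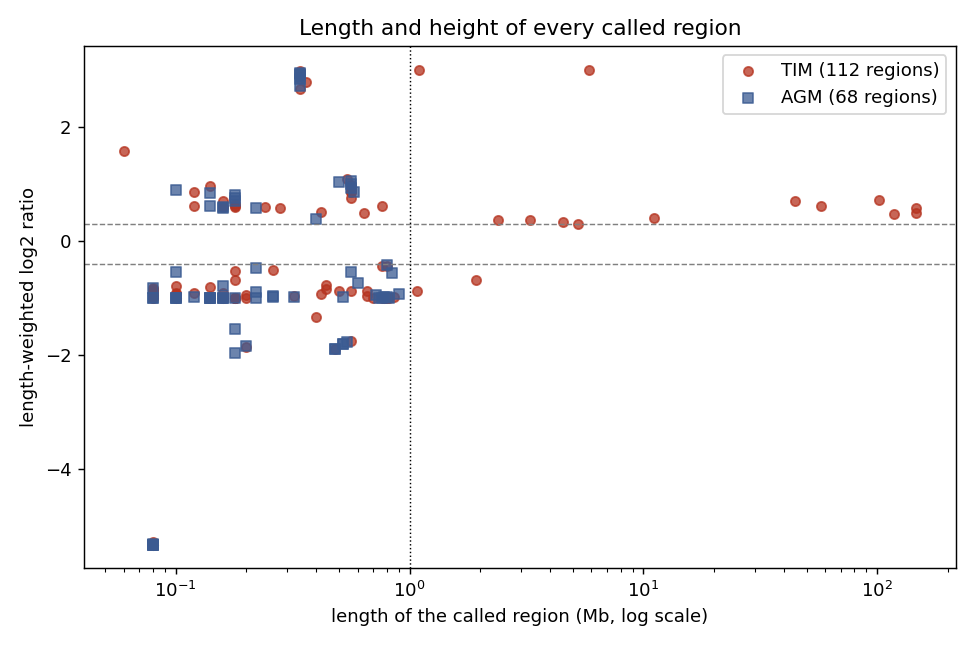
Length (Mb, log axis) and length-weighted log2 ratio of every called region in TIM (circles) and AGM (squares), with the thresholds of 0.3 and -0.4 dashed and 1 Mb dotted. Right of 1 Mb there are 13 gains and 2 losses, all of TIM; below 1 Mb the losses of both groups overlap, down to -5.32.

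Lost sequence did not separate the groups. It was 4.68, 3.36, 2.78, 2.54, 2.18, 2.96, 2.16 and 2.38 Mb in TIM replicates 1, 4, 5, 7, 8, 9, 11 and 12, and 2.14, 5.02, 3.48, 2.72 and 2.62 Mb in AGM replicates 1 to 5. The ranges overlapped in full (medians of 2.66 and 2.72 Mb, exact permutation p = 0.724, adjusted p = 0.845). The longest lost region was 1.92 Mb in TIM replicate 1, 1.08 Mb in TIM replicate 4 and 0.70 to 0.82 Mb in the other 6 tumors, against 0.74 to 0.90 Mb in AGM (exact permutation p = 0.976, adjusted p = 0.976). Loss calls of genes differed for 0 of 20621 genes (0%) in Fisher's exact test after BH adjustment and for 0 at an unadjusted p under 0.05. The exact permutation test of the log2 ratio also called 0 after adjustment. In TIM 38 genes (0.184%) were lost in at least 1 tumor and no gland, and 0 in at least 2. In AGM 52 genes (0.252%) were lost in at least 1 gland. The losses absent from AGM were 18 regions of 80 to 660 kb with log2 ratios from -0.97 to -0.52. None of them was called in 2 tumors and 5 overlapped no protein-coding gene. The longest was 660 kb in TIM replicate 7 on Chr 1 (185460001 to 186120000) at -0.97, over Lyplal1. Others touched Rims1 in TIM replicate 4, Flt1, a receptor of vascular growth factors, in TIM replicate 11, and Gli3, a transcription factor of hedgehog signaling, in TIM replicate 9. These 4 genes were chosen after their values were seen.

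The absence of long losses rests on the threshold in 1 tumor. In TIM replicate 4 nearly all of Chr 15 lay below the other samples. The median log2 ratio was -0.093 in the proximal part up to 72360000, -0.26 over 11.5 Mb from 72360001 to 83820000 (273 genes) and -0.14 over 19.8 Mb up to 103640000. The segment means were lower than the medians, at -0.29, -0.41 and -0.32. Over the distal 31.3 Mb the weighted level was -0.18, or 1.76 copies, against -0.0051 to 0.037 in AGM and the other 7 tumors. With the mean in place of the median, the middle part would count as a loss of 11.5 Mb. Myc, on Chr 15 in the proximal part, was at -0.093 in this tumor and between -0.0051 and 0.017 elsewhere.

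Breakpoints, defined as boundaries between neighboring segments with a step of at least 0.3 in log2 ratio, were as frequent in AGM as in TIM. There were 30, 25, 23, 29, 29, 30, 34 and 31 in TIM replicates 1, 4, 5, 7, 8, 9, 11 and 12, and 32, 36, 30, 27 and 25 in AGM replicates 1 to 5 (exact permutation p = 0.643, adjusted p = 0.845). Of the 231 breakpoints in TIM, 161 (69.7%) lay within 100 kb of a breakpoint of at least 1 gland. The remaining 70 ranged from 4 in TIM replicate 5 to 15 in TIM replicate 12, and 12 of them lay near one of another tumor. By sample, 51.6% (TIM replicate 12) to 82.6% (TIM replicate 5) of the breakpoints of a tumor lay near one of the 5 glands. For a gland, 80.6% to 100% of its breakpoints lay near one of the 4 other glands. The share of autosomal sequence within 0.05 of a log2 ratio of 0 was 99.75% to 99.84% in AGM and 84.3% to 99.81% in TIM. In TIM replicate 8 it was 99.81%, and 11 of 19 autosomes were 1 segment, as in AGM with 9 to 13. TIM replicate 4 had 95.6% in this band, with Chr 15 outside it. The quiet genomes of TIM replicates 4 and 8 were thus not alike, since only TIM replicate 8 was within this band as widely as the glands. The band uses segment medians. Chr 15 of TIM replicate 8, 1 segment, had a median of -0.0051 and a mean of -0.11. In AGM the Chr 15 medians were 0.013 to 0.017, and the means over its distal and proximal parts were -0.0047 to 0.048.

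Some focal regions were called in every sample of both groups. Their origin was not tested. A gain of Tcerg1l on Chr 7 (137600001 to 138100000) was at 0.75 to 1.09 in TIM and 0.86 to 1.05 in AGM. A loss on Chr 13 (65900001 to 66600000) over the zinc finger genes Zfp997, Zfp998 and Zfp999 was at -1.0 to -0.99 in both groups. A loss on Chr 14 over Anxa11, Plac9, Tmem254, Cphx1 and Duxbl1 was at -1.0 in all 13 samples, and one on Chr 5 over Zfp932 at -5.32 to -5.28. These regions entered the lost and gained sequence of every sample alike. The level varied among samples in 2 other regions on Chr 14. From 43200001 to 43280000 it was -3.16 in TIM replicates 9 and 12 and -3.16 to -2.25 in AGM replicates 1 to 3, while the other 6 tumors and AGM replicates 4 and 5 were at -1.0. From 53280001 to 53380000 all 5 glands and TIM replicates 7 and 8 were at -5.32, while the other 6 tumors were between -0.95 and -0.77. In the next 100 kb up to 53480000 these glands and TIM replicates 7 and 8 were at -1.0. TIM replicates 7 and 8 thus shared the level of -5.32, the gain at Dbh and the Chr 14 gain. Whether both tumors came from 1 animal or litter is not in the labels.

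Losses and breakpoints were also compared with tumors of IGF2BP1 alone (TI, 8 samples), whereas gains were not compared here. The longest lost region had a median of 0.800 Mb in TIM and 18.3 Mb in TI, and in 55 of 64 pairings the TI tumor exceeded the TIM tumor (exact permutation p = 0.0129, BH adjusted over 2 measures p = 0.0258). Lost regions of at least 2 Mb numbered 13 in 6 TI tumors and 0 in TIM. Breakpoints numbered 23 to 34 in TIM and 22 to 48 in TI (exact permutation p = 0.487, adjusted p = 0.487). All TIM titles and 1 TI title carry the prefix AGH and the other 7 TI titles the prefix SH, so that title series and genotype cannot be told apart here. With the 7 SH tumors alone the adjusted p of the longest lost region was 0.0513, and without TIM replicates 9 and 12 it was 0.0546.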

How the data were processed

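Genomic DNA of frozen tissue was analyzed by shallow whole genome sequencing. Reads were trimmed with cutadapt 2.8 and aligned with HISAT2 2.1.0 to mm39, and SAMtools 1.10 was used, per the submitters' processing notes. The authors called copy number with cn.MOPS against wildtype adrenal glands and deposited a median and a mean log2 ratio per segment and sample, with a copy number derived from the median. Window length and segmentation settings were not given in the sources used here. All 19 autosome lengths equalled GRCm39, and genes came from GENCODE M39. The gain and loss thresholds were taken from the methods of the study.

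Measures were compared by exact permutation tests of the Mann-Whitney rank sum and calls by Fisher's exact test, with Benjamini-Hochberg (BH) adjustment. The named genes were chosen from the members of 12 gene lists, autosomes gained or lost over at least 50% in a TIM tumor, focal regions under 5 Mb in at least 2 TIM tumors and no gland, up to 20 genes of the part gained in most TIM tumors, regions beyond 1.5 in absolute log2 ratio, parts gained in at least 3 TIM tumors, and regions shared by both groups. Members, lists and tests were chosen with earlier results of these data known. One focal region and some list genes are part of all counts without being reported here. Alternatives were other thresholds (0.2 and -0.2, 0.5 and -0.6), the mean, the rounded copy number, regions of at least 1 Mb, other breakpoint steps and chromosome shares, other tests, a replicate block, and leaving out samples. The scripts were tested on simulated data. Among 78 pairs of samples 0 were identical in their 1 Mb windows. Computation used scipy 1.17.1 with numpy 2.4.6 and pandas 2.3.3 under Python 3.11.15, and figures were drawn with matplotlib 3.10.9.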

Additional observations from a re-analysis of the deposited data

Results flagged for a closer look

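Sets of values per group (10 measures in each of 2 groups, so 20 sets) were searched for a sample whose gap to the nearest other exceeded the limit of Dixon's test. Chance gives about 1 in 20 sets, and 4 were found. The longest lost region of TIM replicate 1 was 1.92 Mb, against 1.08 Mb in the next tumor. The log2 ratio at Igf2bp1 in TIM replicate 9 was 0.59, against 0.22 in TIM replicate 5 as the next. The longest gained region of AGM replicate 3 was 0.50 Mb, against 0.56 Mb in the next gland, a gap of 3 steps of the 20 kb grid. AGM replicate 2 had 57 segments, against 52 in the next gland.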

How the results depend on the processing

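Gained sequence, the longest gained region and gained genes were higher in TIM under every alternative tried. In that order their adjusted p was 0.103, 0.107 and 0.0925 with thresholds of 0.5 and -0.6, 0.0616 for all 3 with regions of at least 1 Mb, 0.106, 0.111 and 0.106 with the 6 tumors not labelled adrenal, 0.0544 for all 3 with a difference of means, and 0.106, 0.111 and 0.106 without the 2 tumors of over 100 segments (chosen after seeing the data). Leaving out 1 sample gave 0.00589 to 0.0990 for gained sequence and gained genes and 0.00589 to 0.108 for the longest gained region. The thresholds of 0.2 and -0.2, the mean and the rounded copy number left them past the threshold of 0.05. At Gt(ROSA)26Sor Fisher's exact p was 0.0754 with thresholds of 0.5 and -0.6, 0.0606 with the tumors not labelled adrenal and without the 2 tumors of over 100 segments, and 0.0152 to 0.0606 on leaving out 1 sample. For the longest lost region the rank direction turned in 7 of 22 alternatives, without passing the threshold. It turned at 0.366 with thresholds of 0.2 and -0.2 and with the mean, and at 0.890 with the tumors not labelled adrenal. It also turned in some of the runs that left out 1 sample, all of which gave 0.699 to 0.980. Lost sequence turned in 3 of 22 alternatives, among them regions of at least 1 Mb at 0.568 and at least 1 run that left out 1 sample. All runs that left out 1 sample gave 0.396 to 1. Breakpoints turned only without AGM replicate 2 (0.970), and all runs that left out 1 sample gave 0.481 to 0.970. Breakpoints do not use the call thresholds or a minimum region length. Gained chromosomes kept their direction and did not pass the threshold (0.141 to 0.364 on leaving out 1 sample). Genes called gained, genes called lost and autosomes called gained numbered 0 after adjustment in all alternatives. In the comparison with TI the longest lost region had an adjusted p of 0.0513 with the 7 SH tumors and 0.0546 without the 2 tumors of over 100 segments.

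The replicate numbers 1, 4 and 5 occur in both groups. Deviations from the group means over 2463 windows correlated at -0.28, 0.24 and 0.042 for these pairs. Values for unmatched pairs are not given here. Such correlations cannot show whether samples with the same number share a litter or batch. With the replicate block the smallest p over 3 pairs is 0.25. The adjusted p was 0.583 for gained sequence, the longest gained region and gained genes, 0.583 for lost sequence with its direction turned, and the exact p at Gt(ROSA)26Sor was 0.5. Read depth was not analysed here, so limits set by depth are not given.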
